A study of Mus musculus with 8 samples.

Results

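The Bcl2 family apoptosis regulators are described here through 10 genes, namely the pro-survival genes Bcl2, Bcl2l1 and Mcl1, the effectors Bax and Bak1, and the BH3-only genes Bid, Bik, Bcl2l11, Bbc3 and Pmaip1. They were chosen by symbol, as named members of the family, and matched to Ensembl gene IDs. They are 10 of the 54141 gene IDs in the deposited table. All 10 passed the filter on low counts and were among the 16132 genes tested, with at least 47 fragments per library behind each value.

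Proteins of this family decide whether the outer mitochondrial membrane stays intact. BAX and BAK, once active, form pores in that membrane and let cytochrome c out, which starts the caspase cascade. BCL2, BCL-XL (from Bcl2l1) and MCL1 hold them in check, and the BH3-only proteins relay stress by binding the guardians or the effectors. In mice, loss of Mcl1 from the gut epithelium causes epithelial apoptosis, Bcl2 protects the base of colonic crypts, and Bbc3 drives crypt cell death after irradiation. Ceramides have been linked to mitochondrial apoptosis in cultured cells, and DEGS2 is a desaturase and hydroxylase that makes phytoceramides.

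RNA-seq was done on epithelial cells of the mouse distal colon, loosened with 5 mM EDTA for 30 minutes and passed through a 100 µm strainer. The groups were homozygous Degs2 mutants (Degs2_KO, 4 libraries) and wild type (WT, 4 libraries), both on the c57bl6/j background. The labels used here state neither the age of the mice, nor how the Degs2 allele was made, nor that each library had its own mouse. The p-values therefore measure only sample-to-sample spread, some of which may be technical.

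The libraries held between 32.8 M and 49.8 M fragments (M for mega), with WT replicate 1 the shallowest. Epithelial markers summed to between 14110 and 15859 CPM (TMM-normalized counts per M) in Degs2_KO and between 13350 and 17193 CPM in WT, with 0 of 9 markers at 0. Degs2_KO replicate 3 and WT replicate 1 stood apart on the first principal component, at -59.1 and -53.9 against -1.09 to 43.0 for the other libraries. Hoxd13, a gene of the distal hindgut, was at 0.312 CPM in Degs2_KO replicate 3 and 0.699 CPM in WT replicate 1, and at 38.8 CPM or more in the other libraries, although all are labelled distal colon. For single genes, fold changes without these 2 libraries are given beside those of all 8 if over 1.5 times apart or of opposite sign. Medians over gene lists are for all 8 libraries unless stated. Because these are bulk samples, fewer cells of a type and less RNA per cell cannot be told apart.

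Degs2 itself was at 53.3, 47.7, 65.6 and 65.9 CPM in Degs2_KO replicates 1 to 4, against 151, 110, 106 and 120 CPM in WT replicates 1 to 4. The groups did not overlap, and Degs2_KO held 47.8% of the WT level. The log2 fold change was -1.07 ± 0.15 (SE), and the exact 2-sided permutation test over 70 assignments gave p = 0.0286, the smallest it can give. edgeR's quasi-likelihood test gave an adjusted p of 0.796, so Degs2 did not pass over all genes, while DESeq2 gave an adjusted p of 6.96e-07.

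Per length, the family in this epithelium was dominated by Mcl1 and Bak1. Levels between genes are compared as CPM per kb of merged exons, a level and not a difference, averaged over the 8 libraries. Mcl1 was at 147 ± 21.5 (SD, n = 8), within the top 1.76% of tested genes with a length. Bak1 followed at 74.5 ± 7.66, within the top 3.90%. These were the highest members, and their ranges over the libraries did not overlap.

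Bax came next at 14.8 ± 1.08 CPM per kb (SD, n = 8), with a range from 13.3 to 16.3 that met neither neighbour. Bcl2l1, at 9.18 ± 0.88, and Pmaip1, at 8.94 ± 2.51, overlapped. Bid was at 4.62 ± 0.69, clear of Pmaip1 but not of Bbc3, which was at 2.93 ± 0.53. Bbc3 in turn overlapped Bcl2 at 2.31 ± 0.29. The lowest levels belonged to Bcl2l11, at 1.48 ± 0.21, and Bik, at 1.12 ± 0.30, which overlapped each other.

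Within their classes, Mcl1 made up 92.7% of the summed length-scaled level of the 3 pro-survival genes and Bak1 83.4% of that of the 2 effectors. The guardian gene Bcl2l2 is not among these 3 and was at 17.9 CPM per kb of merged exons, above Bcl2l1. The Bak1 level was 5.02 times that of Bax, and the Mcl1 level 16.0 times that of Bcl2l1. With the longest transcript as the length the order of the means was the same, but the spacing was not. Bak1 was then 3.53 times Bax and Mcl1 8.94 times Bcl2l1, and the shares were 88.3% for Mcl1 and 77.9% for Bak1. On that length Bcl2l1 overlapped Bax and lay above Pmaip1 (14.5 to 19.7 against 5.86 to 13.0), and Pmaip1 overlapped Bid. Bid lay above Bbc3 (5.44 to 8.44 against 2.72 to 4.43), and Bcl2l11 overlapped Bcl2 and lay above Bik. Whether the ranges of these neighbours overlap therefore depends on the length used.

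**Figure D1:**
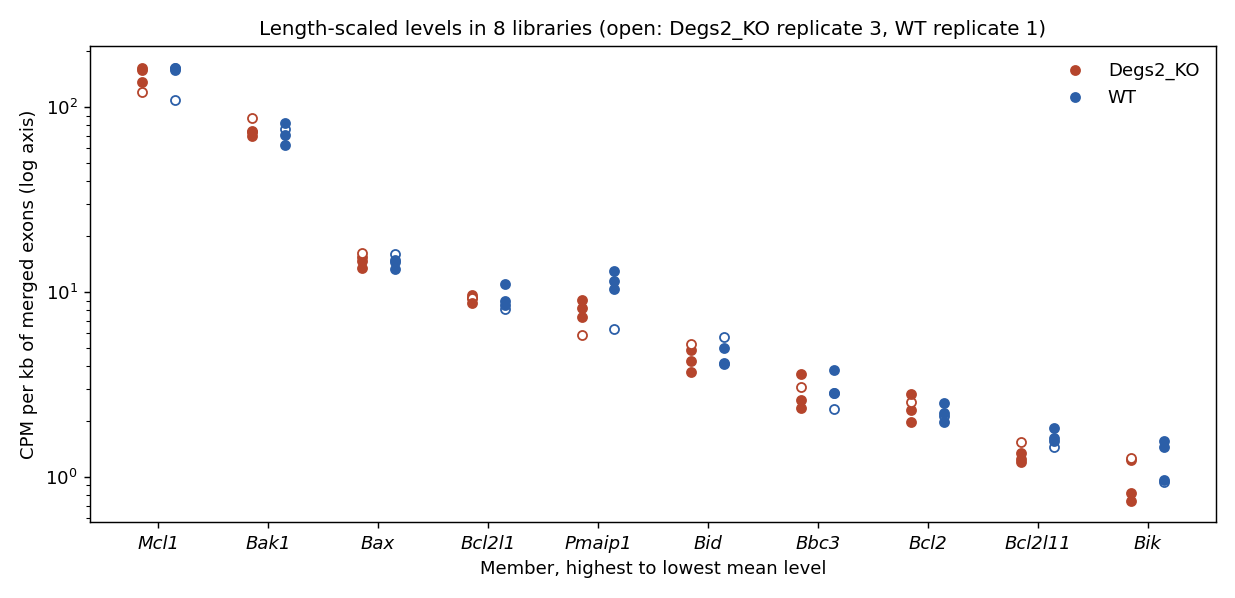
Level of each member in CPM per kb of merged exons (log axis), 1 point per library, Degs2_KO to the left of WT, members ordered by mean. Mcl1 (109.6 to 163.5) and Bak1 (62.3 to 87.5) lie above the other 8 members, and the points of Bcl2l11 and Bik overlap at the bottom.

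No member differed between the genotypes past the adjusted threshold. edgeR called 0 of the 16132 tested genes (0%) at an adjusted p of 0.05 and 0 of the 10 members, each with an adjusted p of 0.9996. DESeq2 called 2 genes over the whole table and none of the members. At an unadjusted p under 0.05, edgeR found 183 of all tested genes (1.13%) and 1 member, Bcl2l11, which was lower in Degs2_KO, as were 0.806% of all tested genes at that p. By direction, 4 members had positive and 6 negative log2 fold changes, where 52.6% of all tested genes were negative, with a median of -0.028 against -0.0069 over all tested genes. The groups overlapped for all 10 members, while 168 genes (1.04%) of the table had groups that did not overlap.

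With all 8 libraries the precision was enough to bound these differences. All 10 members had a 95% interval inside 2-fold in either direction, against 81.9% of tested genes, and 8 had one inside 1.5-fold, against 60.4%. Bik and Pmaip1 were the exceptions at 1.5-fold. Without Degs2_KO replicate 3 and WT replicate 1 the interval of Bik ran from -1.17 to 0.17 on the log2 scale, beyond 2-fold. The intervals of Bcl2l11 and Bbc3 then also went beyond 1.5-fold, to -0.66 and -0.62.

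Among the pro-survival genes, Bcl2, the founding member, encodes an inhibitor anchored in mitochondrial and endoplasmic reticulum membranes (ENSMUSG00000057329, minus strand of chromosome 1, 106538178 to 106714274, GRCm38). It was at 18.2, 21.0, 23.4 and 25.9 CPM in Degs2_KO replicates 1 to 4, against 19.5, 23.0, 20.4 and 18.2 CPM in WT. The highest library was a Degs2_KO library and the lowest levels of both groups were alike, so the groups overlapped. The log2 fold change was 0.12 ± 0.12 (SE), with a 95% interval from -0.16 to 0.41.

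Bcl2l1 encodes BCL-XL, the guardian on which platelets and many neurons depend (chromosome 2, minus strand, 152780668 to 152831728). Its levels were 44.0, 42.4, 42.7 and 40.2 CPM in Degs2_KO, against 37.3, 40.8, 39.0 and 50.6 CPM in WT. The 4 Degs2_KO libraries lay inside the WT range, which WT replicate 4 set at the upper end. Its log2 fold change of 0.015 ± 0.10 had a 95% interval from -0.21 to 0.24, between 0.862-fold and 1.18-fold, and was -0.037 ± 0.11 without the 2 libraries that stood apart.

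Mcl1 encodes a short-lived guardian that must be made continuously (ENSMUSG00000038612, chromosome 3, plus strand, 95658788 to 95663176). It was at 543, 559, 414 and 466 CPM in Degs2_KO, against 375, 542, 559 and 554 CPM in WT. In both groups the lowest library was the one that stood apart, Degs2_KO replicate 3 and WT replicate 1. Degs2_KO differed from WT by -0.034 ± 0.15 on the log2 scale with all libraries and -0.074 ± 0.096 without these 2, where the 95% interval ran from -0.30 to 0.15.

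Bax encodes an effector that moves from the cytosol to mitochondria when activated (chromosome 7, minus strand, 45461697 to 45466898). It was the steadiest member, with a highest library only 1.22 times its lowest. Its levels were 24.4, 23.2, 25.7 and 21.2 CPM in Degs2_KO, against 25.2, 23.4, 22.9 and 21.0 CPM in WT, ranges that nearly coincide. Its log2 fold change of 0.032 ± 0.091 had a 95% interval from -0.17 to 0.24.

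Bak1 encodes the effector that resides on mitochondria (chromosome 17, minus strand, 27019810 to 27029009). It was at 177, 168, 211 and 178 CPM in Degs2_KO, against 183, 170, 150 and 197 CPM in WT, with the highest value in Degs2_KO replicate 3 and the lowest in WT replicate 3. On the log2 scale the difference, Degs2_KO minus WT, was 0.069 ± 0.11, and 0.023 ± 0.11 without the 2 libraries that stood apart. Exons of Ggnbp1 on the opposite strand overlap Bak1 by 437 bases; Ggnbp1 was at 3.59 CPM in Degs2_KO and 4.03 CPM in WT, far below Bak1.

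**Figure D2:**
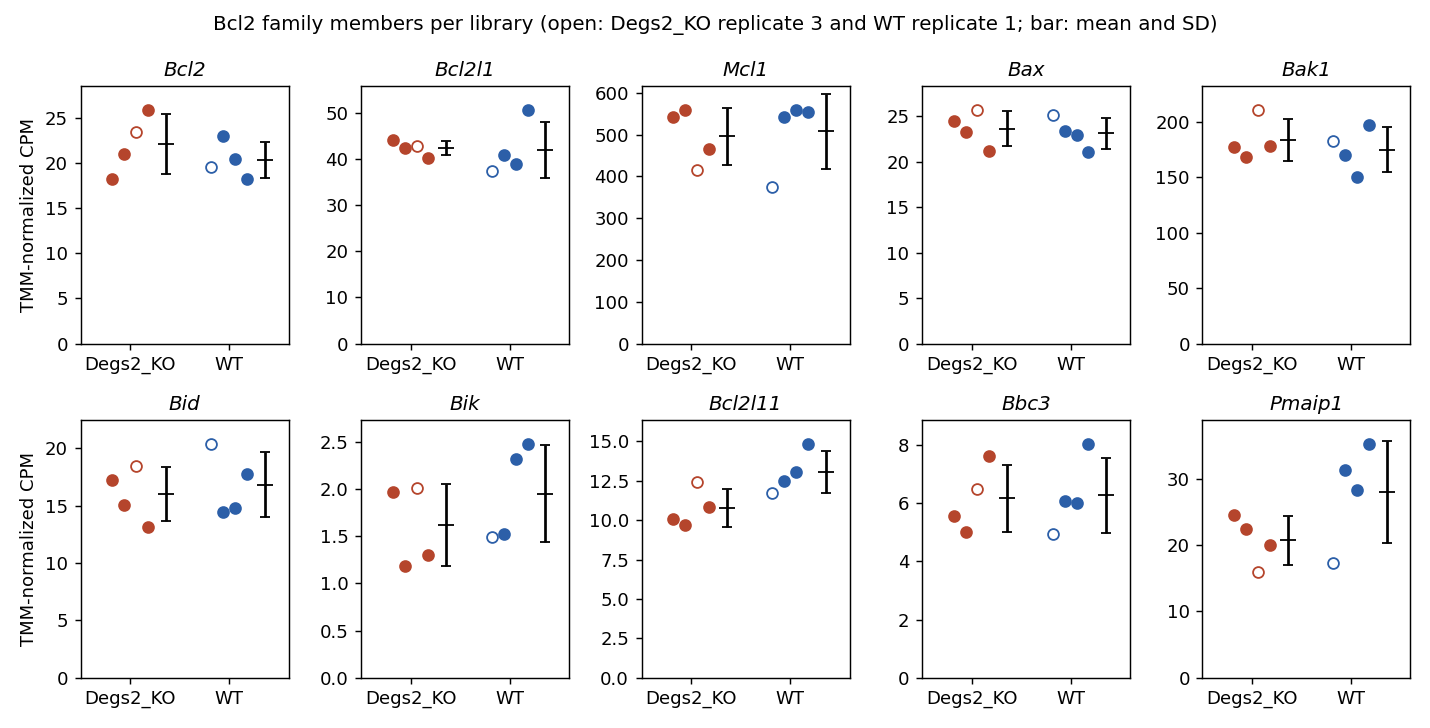
TMM-normalized CPM of each member in 4 Degs2_KO libraries (left) and 4 WT libraries (right); open points are Degs2_KO replicate 3 and WT replicate 1, bars the mean and SD. Bax is nearly flat from 21.0 to 25.7 CPM, and the open points are the lowest of their groups for Mcl1 and Pmaip1.

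The BH3-only gene with the smallest p was Bcl2l11, which encodes BIM, a direct activator of BAX and BAK that also binds every guardian (ENSMUSG00000027381, chromosome 2, plus strand, 128126038 to 128162547). It was at 10.1, 9.68, 12.4 and 10.9 CPM in Degs2_KO, against 11.7, 12.5, 13.1 and 14.8 CPM in WT. Of the Degs2_KO libraries, 3 lay below every WT library, and replicate 3 reached above WT replicate 1. The means were 10.8 ± 1.20 CPM in Degs2_KO and 13.0 ± 1.32 CPM in WT (SD, n = 4 each).

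For Bcl2l11 the log2 fold change was -0.28 ± 0.12 (SE), 82.5% of the WT mean, with a 95% interval from 0.687-fold to 0.990-fold. edgeR's unadjusted p was 0.0411, rank 133 of the tested genes, with an adjusted p of 0.9996, and the exact 2-sided permutation test gave p = 0.0571. Without Degs2_KO replicate 3 and WT replicate 1 the groups did not overlap, at 10.2 ± 0.605 CPM in Degs2_KO and 13.5 ± 1.22 CPM in WT (SD, n = 3 each). That fit gave a log2 fold change of -0.40 ± 0.11 and an adjusted p of 0.9989, where 9.47% of genes had groups that did not overlap and 4.01% an unadjusted p under 0.05 (2.34% with a lower level in Degs2_KO). With a block on adjoining ID numbers in the labels the log2 fold change was -0.17 and edgeR's unadjusted p 0.317. That block pairs Degs2_KO replicate 1 with WT replicate 1, 3 with 2 and 4 with 3. Degs2_KO replicate 2 and WT replicate 4 have no partner, so neither enters its group difference.

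Transcription of Bcl2l11 and of Bbc3 is known to be driven by FoxO factors, so their promoters are shown as the sequence context of these genes. RefSeq windows from 250 bases before to 50 bases after a start were available for 8 of the 10 members, with 13 windows in all (build GRCm38.p6). The FoxO core GTAAACA, searched on both strands (TGTTTAC on the other), occurred in 2 of these 13 windows and in 3.65% of the 32817 windows of all genes. The cyclic AMP response element TGACGTCA occurred in none of the 13 and in 1.79% of all windows. A p53 half-site occurred in 1 of the 13, that of Bax, and in 8.36% of all. The windows with the FoxO core follow, 5′ to 3′ on the strand of the gene, with the core in capitals.
Bcl2l11, plus strand, chr2:128125788-128126087: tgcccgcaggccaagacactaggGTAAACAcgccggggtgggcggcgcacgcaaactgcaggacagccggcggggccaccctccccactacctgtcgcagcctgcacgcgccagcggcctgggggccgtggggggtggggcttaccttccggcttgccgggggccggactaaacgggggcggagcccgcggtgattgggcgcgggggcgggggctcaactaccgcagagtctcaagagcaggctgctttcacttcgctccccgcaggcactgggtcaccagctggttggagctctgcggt
Bbc3, plus strand, chr7:16310011-16310310: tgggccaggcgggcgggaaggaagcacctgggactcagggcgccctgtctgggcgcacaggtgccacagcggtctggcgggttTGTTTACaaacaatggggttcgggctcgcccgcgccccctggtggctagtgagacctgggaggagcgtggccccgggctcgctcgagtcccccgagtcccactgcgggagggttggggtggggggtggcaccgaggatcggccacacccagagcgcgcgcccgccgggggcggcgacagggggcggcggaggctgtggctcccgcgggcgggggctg
Bcl2l11 has 2 RefSeq windows and Bbc3 has 3, and the core is in 1 of each. It begins 227 bases before the start that the printed Bcl2l11 window is built on, and 167 bases before that of the printed Bbc3 window, which lies inside the annotated gene. Such a match is a description of the letters and no measurement of binding. Of the factors, Foxo3 was at 152 ± 15.1 CPM in Degs2_KO and 180 ± 29.7 CPM in WT (SD, n = 4 each; log2 fold change -0.25 ± 0.13, adjusted p 0.9996 by edgeR), and Foxo1 had a log2 fold change of -0.047 ± 0.077.

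Bbc3 encodes PUMA, a p53-induced BH3-only protein that binds every guardian (chromosome 7, plus strand, 16308393 to 16318205). It was at 5.56, 5.00, 6.50 and 7.61 CPM in Degs2_KO, against 4.94, 6.07, 6.02 and 8.04 CPM in WT, so the lowest and the highest library were both WT. Bbc3 had a log2 fold change of -0.023 ± 0.19, with a 95% interval from -0.45 to 0.40, and -0.14 ± 0.20 without the 2 libraries that stood apart.

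Pmaip1 encodes NOXA, a BH3-only protein that binds chiefly MCL1 (ENSMUSG00000024521, chromosome 18). It was at 24.6, 22.5, 16.0 and 20.0 CPM in Degs2_KO, against 17.3, 31.4, 28.3 and 35.3 CPM in WT. Of the WT libraries, 3 lay above every Degs2_KO library, and WT replicate 1 lay below all but Degs2_KO replicate 3. It varied most of the members, with a highest library 2.21 times its lowest.

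For Pmaip1 the log2 fold change was -0.43 ± 0.22 (SE), the largest in size of the 10, with a 95% interval from 0.524-fold to 1.04-fold. The means were 20.8 ± 3.71 CPM in Degs2_KO and 28.1 ± 7.76 CPM in WT (SD, n = 4 each). edgeR's unadjusted p was 0.0797, the adjusted p 0.9996, and the exact 2-sided permutation test gave p = 0.20. Without the 2 libraries that stood apart the groups did not overlap, at 22.4 ± 2.31 CPM in Degs2_KO and 31.7 ± 3.52 CPM in WT (SD, n = 3 each). Its log2 fold change was then -0.50 ± 0.12 and the adjusted p 0.9989, with the same shares of all genes as given for Bcl2l11. With WT replicate 4 left out it was -0.30, and with WT replicate 1 left out -0.60, neither past the adjusted threshold.

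Bid encodes a BH3-only protein that caspase-8 cleaves, which carries the death receptor signal to mitochondria (chromosome 6, minus strand, 120891930 to 120916853). It was at 17.2, 15.1, 18.5 and 13.1 CPM in Degs2_KO, against 20.4, 14.4, 14.8 and 17.8 CPM in WT. The libraries that stood apart were the highest of their groups, the opposite of Mcl1 and Pmaip1. Its log2 fold change of -0.075 ± 0.15 had a 95% interval from -0.41 to 0.26, and was -0.043 ± 0.13 without them. Its exons overlap those of Bcl2l13 on the opposite strand by 628 bases, and Bcl2l13 was at 70.4 CPM in Degs2_KO and 69.0 CPM in WT. No source used here says if reads were assigned by strand, so part of the Bid counts could belong to Bcl2l13.

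Bik, the BH3-only gene first known as Bcl2-interacting killer, was the least abundant member (chromosome 15, plus strand, 83526862 to 83544634). It was at 1.97, 1.19, 2.01 and 1.30 CPM in Degs2_KO, against 1.49, 1.52, 2.32 and 2.48 CPM in WT. The highest levels were in WT replicates 3 and 4 and the lowest in Degs2_KO replicates 2 and 4, with the other 4 libraries mixed between. Its log2 fold change of -0.27 ± 0.27 had a 95% interval from 0.544-fold to 1.26-fold, the widest of the 10. Bik stood at -0.15 when Degs2_KO replicate 2 was left out, at -0.13 when WT replicate 4 was, at -0.50 ± 0.29 when the 2 libraries that stood apart were, and at -0.0029 with the block on adjoining ID numbers. Counts of 47 to 102 fragments per library stand behind it.

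**Figure D3:**
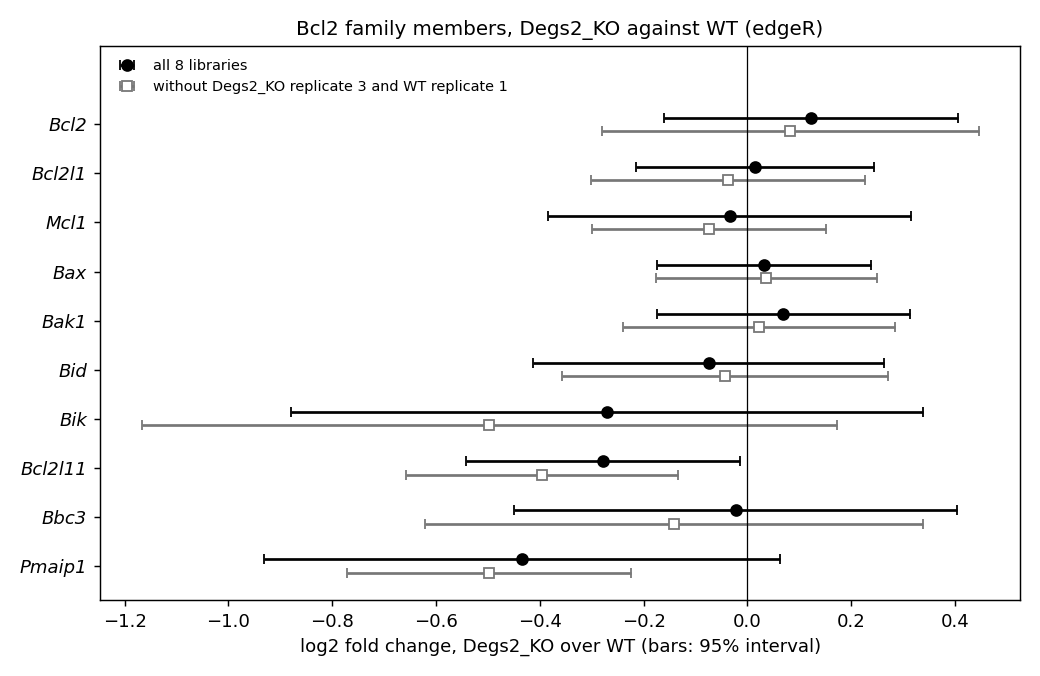
edgeR log2 fold change of each member, Degs2_KO over WT, with 95% intervals, for all 8 libraries (filled) and without Degs2_KO replicate 3 and WT replicate 1 (open). With all libraries the interval of Bcl2l11 ends at -0.014 and those of the other 9 members include 0; without the 2 libraries those of Bcl2l11 and Pmaip1 lie below 0.

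Libraries of 1 genotype also differed from each other, and in different directions for different members. On the log2 scale, relative to the mean of the 8 libraries, Mcl1 was at -0.26 in Degs2_KO replicate 3 and -0.41 in WT replicate 1, and Pmaip1 at -0.56 and -0.45. Bid was at 0.19 and 0.33 in the same libraries, and Bax at 0.14 and 0.11. The pair thus held less mRNA of Mcl1 and of its partner Pmaip1, and more of Bid and Bax, than the mean of all libraries.

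The same libraries differed in other ways. Their sums over the 6 genes of distal position were 140.4 CPM in Degs2_KO replicate 3 and 143 CPM in WT replicate 1, against 367 to 493 CPM elsewhere. Immediate early and heat shock genes summed to 895 CPM in Degs2_KO replicate 3 and 835 CPM in WT replicate 1, against 1797 to 2916 CPM elsewhere. Fos, Jun, Egr1 and Atf3 were each lower in the pair than in every other library. The heat shock genes Hspa1a, Hspa1b and Dnajb1 lay within the range of the others. Hspa1b was at 97.2 and 89.1 CPM in the pair, against 19.9 to 194.5 CPM elsewhere. T cell genes (0 of 11 at 0 in all libraries) summed to 28.8 CPM in Degs2_KO replicate 3 and 33.7 CPM in WT replicate 1, against 7.64 to 15.9 CPM in the other Degs2_KO libraries and 4.27 to 18.4 CPM in the other WT libraries. Tuft cell genes summed to 74.9 and 73.7 CPM in the pair, against 35.0 to 51.5 CPM elsewhere. Enteroendocrine genes (5 markers) summed to 306 CPM in Degs2_KO replicate 3 and 212 CPM in WT replicate 1, against 58.7 to 134.8 CPM elsewhere. Absorptive colonocyte genes (5 markers) summed to 8105 and 7788 CPM in the same libraries, against 1998 to 4394 CPM elsewhere. That rise was in Car1 alone, at 6570 and 6179 CPM in the pair, against 522 to 1941 CPM elsewhere. Ceacam20 was lowest in the pair, at 115 and 114 CPM. Slc26a3, Car4 and Aqp8 lay within the range of the other libraries. Goblet genes (5 markers) split the pair, with the lowest sum in Degs2_KO replicate 3 (5371 CPM) and the highest in WT replicate 1 (28500 CPM). That split was in Muc2 alone, at 522 and 24564 CPM there. Of the other goblet markers, Spdef was highest in the pair, at 155 and 135 CPM, and Tff3 lowest, at 291 and 285 CPM. Agr2 was at 1785 and 1676 CPM and Zg16 at 2618 and 1841 CPM, both higher in Degs2_KO replicate 3. The sums of T cell, tuft cell and enteroendocrine genes, and Car1, were thus higher in the pair in which Mcl1 and Pmaip1 were lowest. The part of these differences in the Mcl1 and Pmaip1 values was not tested.

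WT replicate 4 was the highest library for Bcl2l1, Bik, Bcl2l11, Bbc3 and Pmaip1. Fibroblast genes (6 markers) summed to 30.8 CPM there, against 1.33 to 15.9 CPM in Degs2_KO and 4.05 to 9.22 CPM in the other WT libraries. The sums of epithelial (17193 CPM), myeloid (8.59 CPM) and B and plasma cell genes (1.86 CPM) were also highest there. Hspa1a, Hspa1b and Dnajb1 were lowest there, at 5.94, 19.9 and 59.5 CPM. Without this library the log2 fold change was -0.21 for Bcl2l11 and 0.12 for Bbc3. The part of these marker differences in the values of the members was not tested.

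**Figure D4:**
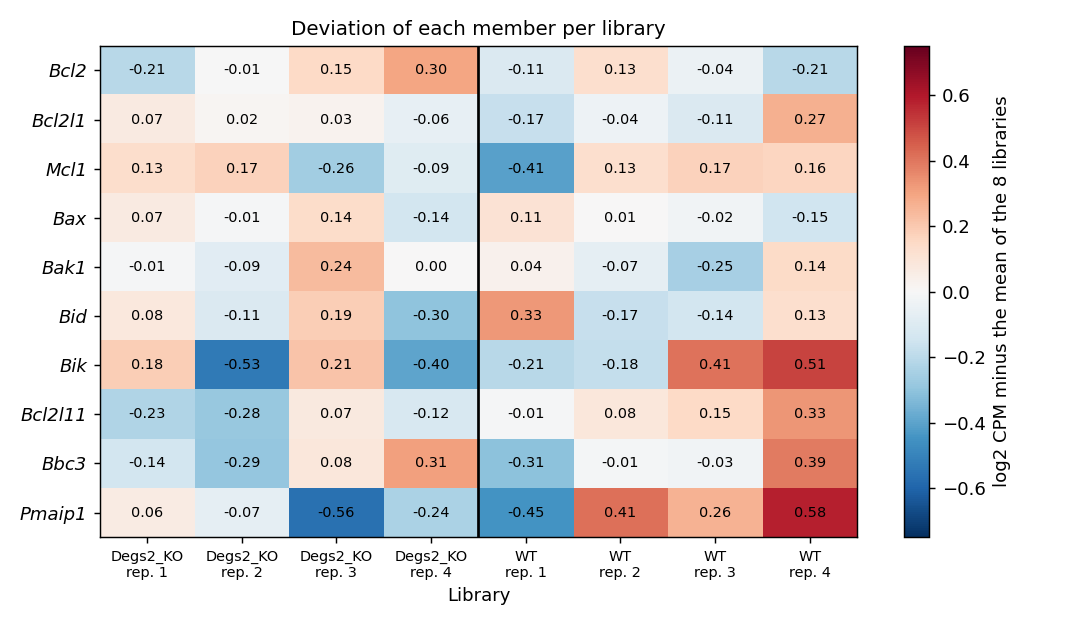
Log2 CPM of each member (rows) in each library (columns, Degs2_KO left of WT), minus the member's mean over the 8 libraries. Mcl1 and Pmaip1 are low in both Degs2_KO replicate 3 and WT replicate 1 (-0.26 to -0.56), where Bid is at 0.19 and 0.33.

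The balance of pro-survival to effector transcripts is given as ratios of length-scaled levels, as a description with no test. The Bcl2 to Bax ratio averaged 0.162 ± 0.034 in Degs2_KO and 0.151 ± 0.015 in WT (SD, n = 4 each). The Bcl2l1 to Bax ratio was 0.618 ± 0.034 in Degs2_KO and 0.630 ± 0.138 in WT. For Mcl1 to Bak1 the ratio was 1.93 ± 0.42 in Degs2_KO and 2.07 ± 0.50 in WT. Each ratio overlapped between the groups, and Mcl1 to Bak1 was lowest in Degs2_KO replicate 3 (1.39) and WT replicate 1 (1.44).

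Of 15 other Bcl2 family genes 9 were tested, 4 with positive and 5 with negative log2 fold changes, a median of -0.030 and none past the threshold. Bcl2l2, the guardian BCL-W, was at 78.9 ± 4.39 CPM in Degs2_KO and 80.6 ± 5.09 CPM in WT (SD, n = 4 each). Its level over the 8 libraries was 17.9 CPM per kb of merged exons. Bcl2l14, a family member with reported pro-death activity, was at 89.6 ± 7.81 CPM in Degs2_KO and 88.9 ± 13.5 CPM in WT. Bad, a BH3-only protein controlled by phosphorylation, had the smallest p of the list, with a log2 fold change of 0.076 ± 0.072, and Bnip3, a mitophagy receptor, had -0.12 ± 0.15. Without the 2 libraries that stood apart Bnip3 was at -0.0027, Bcl2l2 at -0.082 (all libraries, -0.030) and Bcl2l14 at -0.021 (all libraries, 0.010). The haematopoietic gene Bcl2a1, as its near-identical copies Bcl2a1a, Bcl2a1b and Bcl2a1d whose reads counting can split, averaged under 0.1 CPM in both groups, and Hrk, a BH3-only gene of neurons, was listed at 0 in all libraries.

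Downstream of the family, 12 genes of the apoptosome and mitochondrial release were tested, 9 with positive and 3 with negative log2 fold changes (median 0.029), none past the threshold. The named examples are Cycs, the cytochrome c gene, at 0.10 ± 0.11, and Diablo, whose product relieves caspase inhibition, at -0.071 ± 0.068. The 10 caspases split into 5 and 5 (median 0.025), with Casp8, the initiator that cleaves BID, at 114 ± 4.66 CPM in Degs2_KO and 102 ± 14.5 CPM in WT. Casp9, the initiator of the apoptosome, had a log2 fold change of -0.083 ± 0.095, and -0.13 without the 2 libraries that stood apart. Inhibitors of apoptosis were positive for 1 and negative for 8 of 9 genes (median -0.043), with Naip6, an inflammasome sensor of this family, at -0.16 ± 0.21 and Birc3 at -0.14 ± 0.21. Naip1, Naip2, Naip5 and Naip6 are close paralogs, so their counts are uncertain.

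Upstream, 10 of 11 death receptor genes were tested (6 positive, 4 negative, median 0.014). Tnf, the cytokine, was at -0.50 ± 0.33 on the log2 scale and under 1 CPM on average, and Tnfsf10, the death ligand TRAIL, at 0.22 ± 0.27. Of 14 genes of p53 and its targets 13 were tested (8 positive, 5 negative, median 0.051), with Sesn1, a stress-induced regulator, at -0.19 ± 0.19 and Aen, an apoptosis nuclease, at 0.18 ± 0.19, or 0.33 without the 2 libraries that stood apart. Stress-response and FoxO factors had 6 positive and 3 negative values of 9 (median 0.061), with E2f1, a cell cycle factor, at 7.82 ± 1.66 CPM in Degs2_KO and 5.89 ± 1.04 CPM in WT (log2 fold change 0.41 ± 0.20). The median of this list was 0.36 without the 2 libraries that stood apart, which was the value of Jun. Trib3, under 1 CPM on average in both groups, was then at 1.09 (all libraries, -0.17) and Chac1 at 0.76 (all libraries, 0.017). In the same fit E2f1 was at 0.51, Foxo1 at -0.064 and Foxo3 at -0.31.

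Genes that control MCL1 turnover had 2 positive and 3 negative values of 5 tested (median -0.020). Fbxw7, a substrate receptor that marks MCL1 for degradation, was at 20.2 ± 0.52 CPM in Degs2_KO and 18.6 ± 0.82 CPM in WT (SD, n = 4 each), with groups that did not overlap, as for 1.04% of all genes. Its log2 fold change was 0.12 ± 0.073 and its adjusted p 0.9996 by edgeR. Usp9x, a deubiquitinase that stabilises MCL1, was at -0.070 ± 0.25. Of 12 ceramide-linked genes 11 were tested (4 positive, 7 negative, median -0.0038), with Smpd2, a neutral sphingomyelinase, at 0.057 ± 0.082 and Sgpl1, the sphingosine phosphate lyase, at -0.069 ± 0.099. No gene of any of these lists passed edgeR's adjusted threshold, where 0% of all genes passed.

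**Figure D5:**
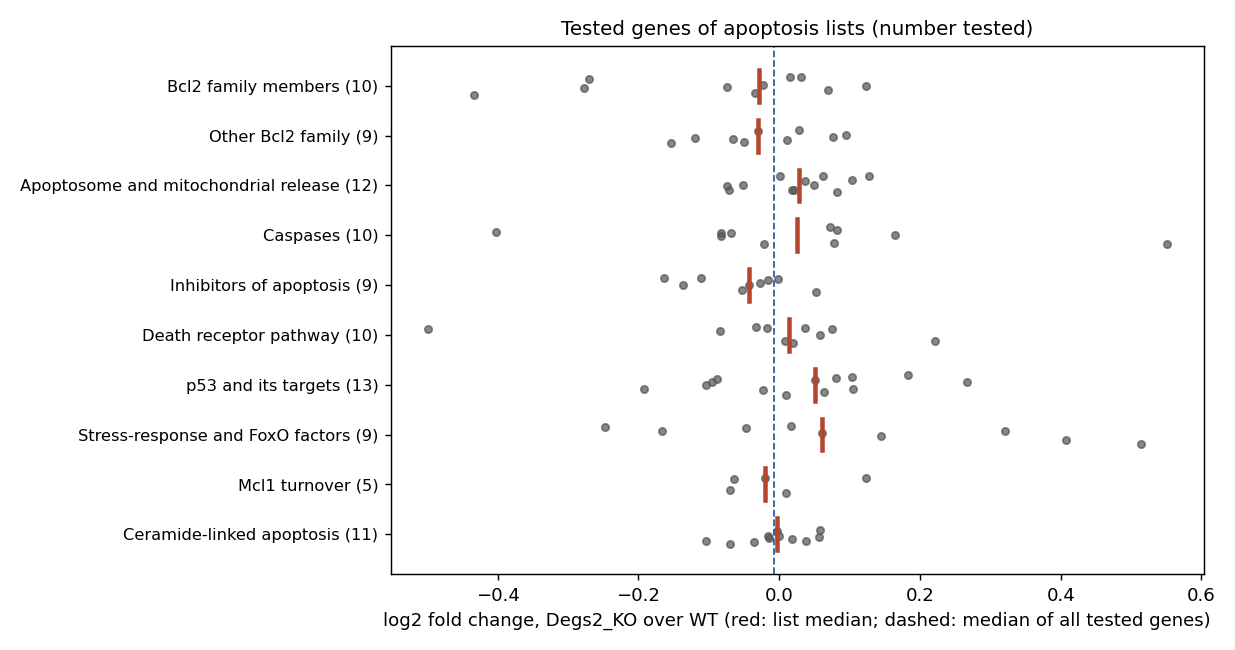
Log2 fold change, Degs2_KO over WT, of each tested gene in 10 lists; red bars are list medians and the dashed line the median of all tested genes, -0.0069. The list medians lie between -0.043 and 0.061, and Pmaip1 at -0.43 is the lowest of the Bcl2 family members.

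The 3 members that varied most over the 8 libraries, by the SD of log2 CPM, were Pmaip1 (0.41), Bik (0.38) and Bbc3 (0.25). The genes with the most similar profiles were picked from all tested protein-coding genes by Pearson's r over the 8 libraries, so high values are built into the choice and carry no p. For Pmaip1 they were Lrsam1 (r = 0.98), Pla2g2c (r = 0.98) and Saa1 (r = 0.97), each below both group means in the libraries that stood apart. Saa1, an acute phase gene, was at 160.3 CPM in Degs2_KO replicate 3 and 197 CPM in WT replicate 1, against means of 261 CPM in Degs2_KO and 503 CPM in WT. For Bik they were Srr (r = 0.97), Cfl2 and Upk1a (r = 0.96 each), and for Bbc3 Kcnn1 (r = 0.95), Mtfmt (r = 0.93) and Cd38 (r = 0.92). The libraries share depth and makeup, which also enter these values.

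Among other cell types, B and plasma cell genes (0 of 5 tested) summed to under 1 CPM in each Degs2_KO library and to at most 1.86 CPM in WT. Myeloid genes (6 markers) summed to between 5.19 and 5.67 CPM in Degs2_KO and between 4.97 and 8.59 CPM in WT.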

How the data were processed

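Cufflinks 2.1.1, Cuffdiff, cutadapt 1.9, TopHat2 2.0.10 and the build mm10 are listed in the submitters' processing notes, with no order or annotation given. The authors deposited estimated counts for each gene in each library, every library scaled by 1 factor (low values are multiples of a step between 0.871 and 1.31, and at least 96.9% of values up to 100 came out whole within 0.02). Estimated counts were rounded, and the 47 genes with a failed estimate in any library were left out. Their 119 failed values were listed at 0. The filter filterByExpr (minimum count 10, minimum total 15) kept 16132 genes, and libraries were TMM-normalized. Degs2_KO was compared with WT by edgeR 4.0.16, run in R 4.3.3 (quasi-likelihood test, 2-sided, group as the only term, Benjamini-Hochberg adjustment over all genes at 0.05), after a test on simulated counts. Log2 CPM used a prior count of 2. Lengths and coordinates are from GENCODE M21 (GRCm38, called mm10). A symbol with several IDs was taken as the ID with more fragments.

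The members and lists were chosen with earlier results of these data known. All 10 members and Degs2 are named. From each list, genes past the threshold or else the 2 with the smallest p are named. So are the 3 genes most alike in profile for each of the 3 most variable members. Hoxd13, Bcl2l2, Bcl2l14, Bcl2l13, the Bcl2a1 copies, Hrk, the other Naip genes, Foxo1 and Ggnbp1 were added after their values were seen. So were Jun, Trib3, Chac1 and the single markers of absorptive colonocytes, goblet cells, immediate early and heat shock genes. Intervals cover the spread between libraries, and a scaled count of 2.61 to 3.93, by library, equals 3 fragments. Alternatives were other scalings, filters and tools (DESeq2 1.42.0, limma 3.58.1), blocks, and libraries left out.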

Additional observations from a re-analysis of the deposited data

Results flagged for a closer look

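Of 28 sets of 4 libraries examined (the 10 members, Degs2 and 3 ratios in each genotype), 1 held a library far from the other 3, where chance alone would set off about 1 in 20. Mcl1 in WT replicate 1 was at 374.5 CPM, below the other WT libraries at 542 CPM or more, and the gap made up 0.91 of the range of the group. The same library stood apart on the first principal component and was the shallowest, with 32.8 M fragments. Degs2_KO replicate 3, which also stood apart, had the lowest Mcl1 of its group at 414 CPM. The part of depth or of makeup in this value was not tested.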

How the results depend on the processing

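No member passed the adjusted threshold under any of 20 alternatives, with adjusted p-values of 0.879 or more. Bcl2, Bik, Bcl2l11 and Pmaip1 kept their direction in all 20, but Bik was at -0.0029 with the ID block and at -0.50 with the 2 libraries that stood apart left out. Leaving out 1 library gave log2 fold changes of 0.039 (without Degs2_KO replicate 4) to 0.22 (without Degs2_KO replicate 1) for Bcl2, -0.39 to -0.13 for Bik, -0.029 to 0.12 for Bcl2l1, -0.15 to 0.043 for Mcl1, -0.012 to 0.081 for Bax, -0.0029 to 0.13 for Bak1, -0.15 to 0.039 for Bid, -0.14 to 0.12 for Bbc3, -0.35 to -0.21 for Bcl2l11, -0.60 to -0.30 for Pmaip1 and -1.13 to -0.94 for Degs2. Without both WT replicate 1 and Degs2_KO replicate 3 Bcl2l1 was at -0.037. With the block on adjoining ID numbers Bax was at -0.0065 and Bbc3 at 0.20. Degs2_KO replicate 2 and WT replicate 4 do not enter the group difference of that block. WT replicate 4 was the highest library for Bbc3, at 8.04 CPM. The cause of these shifts was not tested. The unadjusted p of Bcl2l11 ranged from 0.0089 to 0.317 and was under 0.05 in 10 of the 20, and that of Pmaip1 from 0.0034 to 0.352.

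DESeq2 called 2 genes (edgeR 0) and gave Degs2 -1.06 (adjusted p 6.96e-07). Genes at an unadjusted p under 0.05 numbered 401 without a filter, 99 with the replicate block, 79 with the ID block, 650 without both libraries, and 133 to 782 with 1 library left out, where the highest count was without WT replicate 1, followed by 298 without Degs2_KO replicate 1 and 292 without Degs2_KO replicate 3. Replicate numbers do not pair the libraries: deviations from the group means correlated at -0.42, 0.44, -0.56 and -0.10 for numbers 1 to 4. For the pairs of the ID block they correlated at -0.42 (Degs2_KO replicate 1 with WT replicate 1), -0.53 (3 with 2) and 0.20 (4 with 3). These values do not show the ID block to be a true pairing either. The replicate block gave a count of 99 against 183 without it, and gave Bcl2l11 -0.28 and Pmaip1 -0.41.

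Without both WT replicate 1 and Degs2_KO replicate 3 the list median changed sign for the caspases (-0.031) and the ceramide-linked genes (0.0020). It was then -0.058 for the members, 0.0099 for the apoptosome list and -0.014 for the inhibitors of apoptosis. For death receptor genes it was 0.0029, and for MCL1 turnover -0.011. The median of other Bcl2 family genes was 0.045 with the ID block. That of stress-response and FoxO factors was 0.24 with limma-voom, 0.36 without both libraries and 0.0051 to 0.26 with 1 left out, the highest without WT replicate 1. With the longest transcript as length, Mcl1 was 8.94 times Bcl2l1 (16.0 on merged exons), and levels per kb were 2.95 for Bcl2, 16.4 for Bcl2l1, 21.2 for Bax, 6.79 for Bid and 2.36 for Bcl2l11. With 4 libraries a group, the intervals of Bik and Pmaip1 leave room for differences above 1.5-fold.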
